A study of Mus musculus with 4 samples.

Results

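Runx1, Cited2, Bcl6, Hivep3, Spi1, Irf8 and Cebpb encode regulators of transcription that act in myeloid cells, and the chromatin intervals nearest to their transcription start sites (TSSs) were described here in macrophages depleted of cholesterol. ATAC-seq, which cuts open chromatin with a transposase and sequences the fragments, had been done in RAW macrophages, a mouse macrophage cell line grown in DMEM with FCS, on 2 untreated control samples and 2 samples given methyl-β-cyclodextrin (MCD) at 5 mM for 1 hr. MCD is a ring-shaped sugar that draws cholesterol out of the plasma membrane. It was given in medium with BSA. The study's general methods describe a water control in the same kind of medium, and its ATAC-seq methods call the controls untreated. The deposited table listed 3812 intervals of 201 bp that had been selected for a difference between MCD and control. It gave the mean normalized reads of each condition on a log2 scale. Neither the spread between the samples nor the depth realised per sample is therefore known. Each listed difference had been tested by the authors, whose p-values were not used here, and without values per sample no difference could be tested anew. An interval belonged to a gene when its nearest TSS, among GENCODE basic transcripts with an Entrez ID, was that gene's. By this rule 37 of the 3812 intervals belonged to the 7 genes, and each of the 7 had at least 1.

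Lineage-determining factors such as PU.1 (the product of Spi1), C/EBPβ and RUNX1 bind enhancers in macrophages and keep them open, and signal-dependent factors such as AP-1 and NF-κB then act on and beside those enhancers. RUNX1 is the DNA-binding subunit of core binding factor, IRF8 pairs with PU.1 at composite sites, and BCL6 is a zinc-finger repressor known to restrain inflammatory genes in macrophages. CITED2 binds no DNA itself but docks on the coactivator CBP, and HIVEP3 is a large zinc-finger protein that binds κB-like sequences. ATAC-seq reports how open a stretch of DNA is, not which factor sits on it nor which gene it serves. In bulk samples a weaker change in every cell and a stronger change in fewer cells cannot be told apart. Because the table held changed intervals alone, macrophage identity could not be checked against defining markers.

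The intervals that carry the pattern are shown first: for each gene the interval with the greatest absolute difference between the condition means, then the 1 interval within 3 kb of a TSS, at Cited2, and lastly the 1 interval that held an AP-1, a PU-box and a RUNX motif, at Runx1, which was added after its values were seen. Each is the plus strand of GRCm38, and capitals mark motif matches on either strand. All intervals were searched, and the label "no motif searched" means that none of the motifs searched for was found.
Runx1, upstream, chr16:93009173-93009373, no motif searched: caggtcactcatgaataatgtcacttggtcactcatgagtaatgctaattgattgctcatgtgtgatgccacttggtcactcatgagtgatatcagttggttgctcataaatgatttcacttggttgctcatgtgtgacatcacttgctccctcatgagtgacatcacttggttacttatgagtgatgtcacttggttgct
Cited2, far upstream, chr10:16527818-16528018, capitals AP-1: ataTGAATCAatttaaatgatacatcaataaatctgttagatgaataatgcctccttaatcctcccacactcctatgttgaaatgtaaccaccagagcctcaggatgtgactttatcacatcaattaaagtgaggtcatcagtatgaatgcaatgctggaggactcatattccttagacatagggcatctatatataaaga
Bcl6, upstream, chr16:24120967-24121167, capitals C/EBP then BCL6: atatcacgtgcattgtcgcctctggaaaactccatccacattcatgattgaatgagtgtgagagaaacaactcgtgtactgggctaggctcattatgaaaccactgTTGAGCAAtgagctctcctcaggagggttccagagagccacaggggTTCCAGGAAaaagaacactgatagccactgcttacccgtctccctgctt
Hivep3, intron, chr4:120063512-120063712, capitals AP-1: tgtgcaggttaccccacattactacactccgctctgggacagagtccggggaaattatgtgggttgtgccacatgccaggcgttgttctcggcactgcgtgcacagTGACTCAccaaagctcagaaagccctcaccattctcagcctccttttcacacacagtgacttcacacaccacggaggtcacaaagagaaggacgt
Spi1, upstream, chr2:91090296-91090496, no motif searched: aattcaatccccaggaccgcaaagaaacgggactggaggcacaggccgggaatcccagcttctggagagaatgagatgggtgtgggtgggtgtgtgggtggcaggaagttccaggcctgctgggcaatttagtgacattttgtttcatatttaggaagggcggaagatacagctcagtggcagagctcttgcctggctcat
Irf8, downstream, chr8:120832152-120832352, capitals RUNX: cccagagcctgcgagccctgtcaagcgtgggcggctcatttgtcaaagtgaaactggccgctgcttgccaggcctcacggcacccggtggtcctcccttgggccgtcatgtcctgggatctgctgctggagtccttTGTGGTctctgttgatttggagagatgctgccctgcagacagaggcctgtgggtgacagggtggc
Cebpb, downstream, chr2:167731320-167731520, capitals BCL6: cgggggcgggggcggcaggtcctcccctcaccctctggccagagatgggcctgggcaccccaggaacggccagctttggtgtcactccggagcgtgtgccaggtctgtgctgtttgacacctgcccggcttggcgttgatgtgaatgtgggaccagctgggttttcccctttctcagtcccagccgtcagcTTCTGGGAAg
Cited2, promoter, chr10:17721002-17721202, capitals C/EBP then PU box: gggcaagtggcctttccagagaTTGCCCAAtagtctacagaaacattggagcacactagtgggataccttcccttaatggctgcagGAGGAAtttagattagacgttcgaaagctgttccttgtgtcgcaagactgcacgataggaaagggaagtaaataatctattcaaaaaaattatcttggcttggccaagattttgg
Runx1, upstream, chr16:92852375-92852575, capitals RUNX, PU box (reverse strand) then AP-1: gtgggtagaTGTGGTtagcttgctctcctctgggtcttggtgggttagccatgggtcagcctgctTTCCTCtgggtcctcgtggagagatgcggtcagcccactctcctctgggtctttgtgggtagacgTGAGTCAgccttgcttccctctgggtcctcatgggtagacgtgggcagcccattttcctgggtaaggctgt

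Of the 37 intervals, 31 had a higher mean after MCD and 6 a lower one. The share that was higher, 83.8%, stood beside 73.2% of all rows. The intervals of Hivep3, Spi1, Irf8 and Cebpb were all higher, those of Bcl6 were all lower, and Runx1 and Cited2 had both kinds. The difference, the log2 MCD mean minus the log2 control mean, had a median of 1.10 over the 37 intervals and of 1.14 over all rows. It was at least 1 in 22 member intervals, 59.5%, against 57.3% of all rows, and at most -1 in 2, against 12.5% of all rows. These shares describe rows that had already been selected on the same difference, and the 7 genes had been picked with earlier results of these data known.

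**Figure D1:**
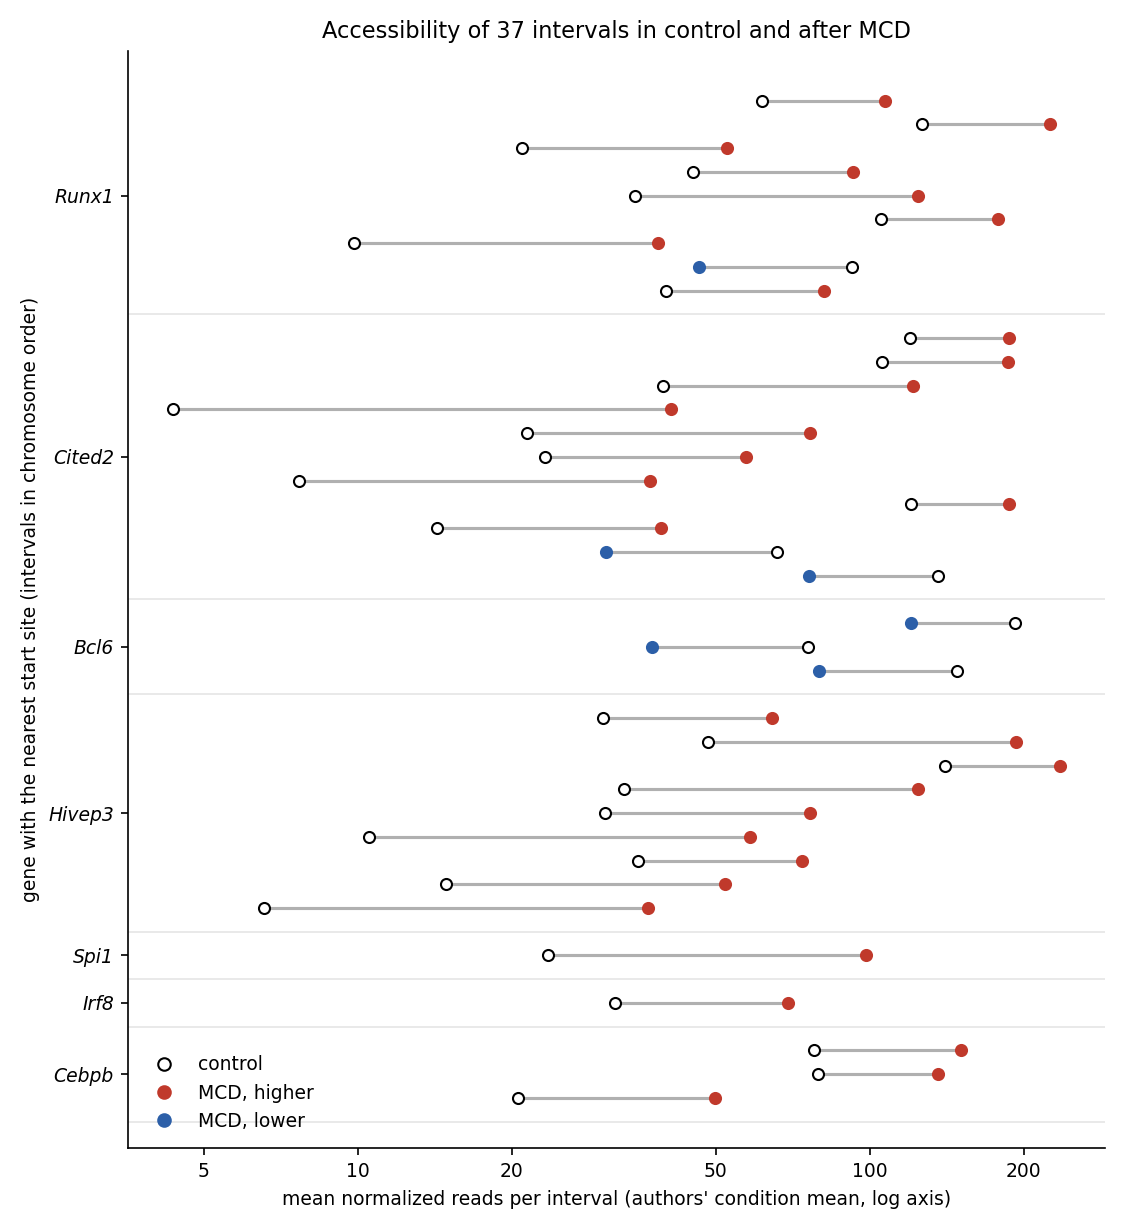
Mean normalized reads (horizontal log axis) of each of the 37 intervals in control (open circles) and after MCD (red where higher, blue where lower), grouped by gene and ordered by position, with a line joining the 2 condition means of an interval and no error bars, since condition means alone were used. The 3 Bcl6 intervals are all blue, the 9 Hivep3 intervals all red, and Runx1 and Cited2 hold both.

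Hivep3 and Runx1 had 9 intervals each and Cited2 had 11, so these 3 genes held 29 of the 37. Among the 2613 genes with a row, 1912 had a single row and only 9 genes had 9 or more. The 5 genes with the most rows were Nfkb1 with 20, Itga4 with 12, Cd44 and Cited2 with 11 each and Bcl2l11 with 10. A gene with distant neighbours collects more rows by the nearest-TSS rule, so the counts were also set against the length of genome nearest to each gene. Per Mb of that length there were 20.9 intervals for Hivep3, 18.3 for Runx1 and 7.25 for Cited2, and the median over genes with a row was 12.7. Over the territories of all genes, those without a row included, there were 1.45 rows per Mb. Cited2, with 1.52 Mb nearest to its TSS, was thus below the first of these references and above the other. Spi1 stood at 41.9 per Mb from a single interval in 0.0239 Mb, Cebpb at 22.2, Bcl6 at 13.0 and Irf8 at 5.07.

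The member intervals lay far from start sites. Their median distance to the TSS was 102.5 kb, against 23.2 kb over all rows, and 19 of the 37 were over 100 kb away, against 12.8% of all rows. Within 3 kb of a TSS there was 1 of 37 (2.70%), against 381 of the 3812 rows (10.0%). The 9 Hivep3 intervals and 3 of the Runx1 intervals were in introns of their own gene, by transcripts Hivep3-202 and Runx1-201. At such distances the nearest TSS is a naming rule, and whether an interval acts on the named gene was not tested. When the TSSs of all annotated genes counted, non-coding ones included, Runx1, Bcl6, Irf8 and Cebpb kept 0 intervals, Cited2 1, Hivep3 7 and Spi1 1. With protein-coding TSSs alone Hivep3 kept 2, and the other genes kept all of theirs.

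**Figure D2:**
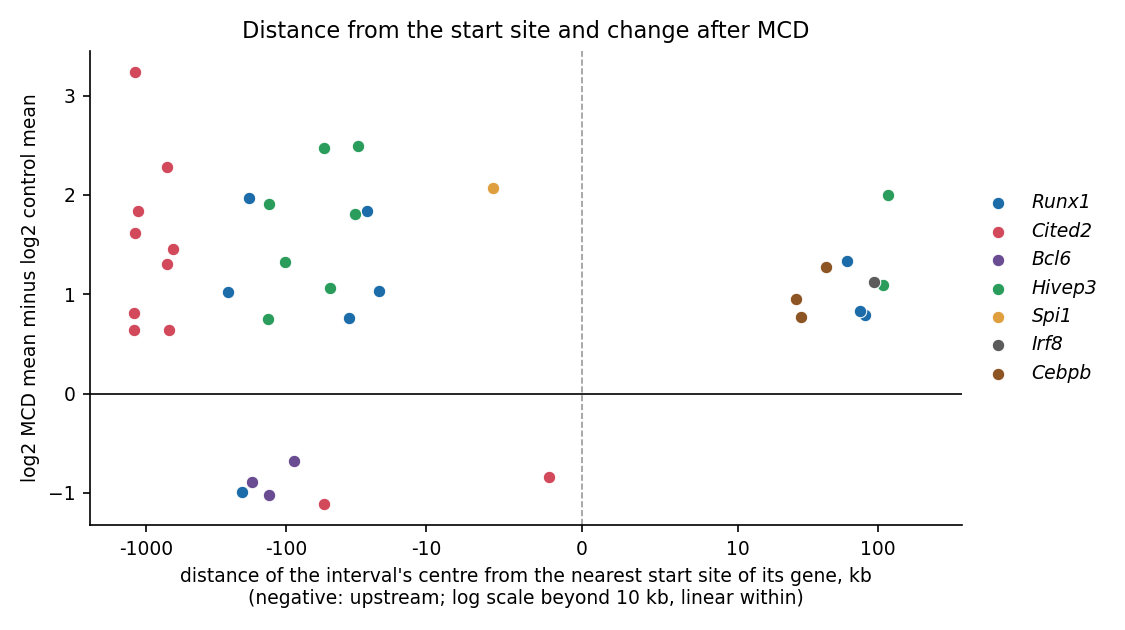
Difference between the condition means (log2 MCD minus log2 control) of each of the 37 intervals against the distance of its centre from the nearest TSS of its gene in kb (negative upstream, log scale beyond 10 kb and linear within), coloured by gene. The 2 lower Cited2 intervals are the 2 nearest to its TSS, at 2.02 and 53.5 kb, and its 9 higher ones lie 640 kb or more away.

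Runx1 (ENSMUSG00000022952.17, chr16:92601466-92826149, minus strand) has a distal start at the end of the gene and a proximal one inside it. Its 9 intervals fell into 3 runs of 3. The first run, 20.4 kb long, lay in intron 6 of Runx1-201, downstream of the proximal start. There the mean at chr16:92615424-92615624 was 61.6 reads in control and 107 after MCD, a difference of 0.80. At chr16:92620911-92621111 it was 126 and 225, a difference of 0.83. At chr16:92635595-92635795 it was 20.9 and 52.6, a difference of 1.33. All 3 held an AP-1 motif, which was in 52.8% of all higher rows. The match at chr16:92615424-92615624 was TGATTCA, 75 bp from the interval's centre. Those at chr16:92620911-92621111 lay 76 and 55 bp from the centre. The interval with the fewest control reads had the greatest difference.

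The next run was 14.0 kb long and began 21.7 kb upstream of the distal Runx1 start. Its first interval, chr16:92847892-92848092, had 45.1 reads in control and 92.6 after MCD, a difference of 1.04. The interval 26.2 kb upstream, printed last in the list above, went from 34.8 to 124 reads, a difference of 1.84. At 35.6 kb, chr16:92861702-92861902 had 105 reads in control and 178 after MCD, a difference of 0.76. All 6 intervals of the first and second runs were thus higher after MCD.

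The third Runx1 run spread over 75.5 kb, from 183 to 258 kb upstream, and was mixed. Its nearest interval, at chr16:93009173-93009373 and printed first above, had 9.84 reads in control and 38.6 after MCD, a difference of 1.97, the greatest of the 9. At chr16:93034145-93034345, 208 kb upstream, the mean was 92.2 in control and 46.4 after MCD, a difference of -0.99 and the only lower interval of Runx1. At chr16:93084485-93084685 it was 40.0 and 81.3, a difference of 1.02. None of these 3 held an AP-1 motif, and the last held the only κB consensus match at Runx1. The rows that flanked the 9 Runx1 intervals belonged to other genes, Clic6 at 90.6 kb from the first run (14.6 reads in control and 59.6 after MCD) and 1700029J03Rik at 432 kb from the third (8.83 and 37.0), and both were higher after MCD.

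Hivep3 (ENSMUSG00000028634.17, chr4:119733784-120138045, plus strand) had all of its 9 intervals inside the gene, within 140.6 kb, in introns 1 and 2 of transcript Hivep3-202. The 5 in intron 1 ran from 30.1 reads in control and 64.5 after MCD at chr4:119923128-119923328 to 140 and 236 at chr4:119959398-119959598. Intermediate control means were found at chr4:119932725-119932925 with 48.3 and 193 reads, a difference of 2.00, and at chr4:119962527-119962727 with 33.1 and 124 reads, a difference of 1.91. The last of the 5, chr4:119991806-119992006, had 30.4 and 76.4 reads, a difference of 1.33. No Hivep3 interval was lower after MCD.

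The 4 intervals in Hivep3 intron 2 had control means between 6.55 and 35.2 reads. At chr4:120040262-120040462 the mean was 10.5 reads in control and 58.4 after MCD, a difference of 2.48. At chr4:120063512-120063712, printed above, it was 6.55 and 36.9, a difference of 2.50 and the greatest at this gene. The other two, chr4:120045833-120046033 and chr4:120062140-120062340, had differences of 1.06 and 1.81. The neighbouring rows on either side of Hivep3 were 376 and 1478 kb from its outermost intervals. AP-1 motifs were in 4 of the 9 Hivep3 intervals (44.4%) and RUNX motifs in 4 (44.4%), while 2 (22.2%) held none of the 9 motifs searched. Over all higher rows these shares were 52.8%, 20.8% and 18.3%.

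Cited2 (ENSMUSG00000039910.10, chr10:17723218-17725674, plus strand) is a short gene beside a long stretch with few start sites. Its 11 intervals were all upstream, in 3 runs, and the direction differed between the runs. The farthest run, 80.2 kb long and 1144 to 1224 kb from the TSS, held 5 intervals, all higher and all with an AP-1 motif. That motif was in 52.8% of all higher rows. The match at chr10:16527818-16528018 was TGAATCA, 94 bp from the interval's centre, and at chr10:16578715-16578915 it was TGATTCA. At chr10:16527818-16528018 the mean was 4.35 reads in control and 41.0 after MCD, a difference of 3.24, rank 10 among the 2790 higher rows. Beside it, chr10:16524236-16524436 had 39.5 and 121 reads, a difference of 1.62, and chr10:16578715-16578915 had 21.4 and 76.6 reads, a difference of 1.84. The other two of the run began from 120 and 106 control reads and had differences of 0.64 and 0.82.

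The middle Cited2 run, 70.6 kb long and 640 to 710 kb upstream, held 4 intervals inside the annotated gene Gm20125 (a processed transcript), again all higher. At chr10:17014847-17015047 the mean was 7.69 reads in control and 37.3 after MCD, a difference of 2.28. At chr10:17012564-17012764, which held a κB consensus match, it was 23.2 and 57.3, a difference of 1.31. The remaining pair, chr10:17034967-17035167 and chr10:17082987-17083187, had differences of 0.64 and 1.45. A gap of 586 kb without a row followed.

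The 2 Cited2 intervals nearest to the gene were the lower ones. At chr10:17669487-17669687, 53.5 kb upstream, the mean was 65.8 reads in control and 30.5 after MCD, a difference of -1.11. At chr10:17721002-17721202, 2.02 kb upstream and the only one of the 37 within 3 kb of a TSS, it was 136 and 76.1, a difference of -0.84. Neither held an AP-1 motif, and the promoter interval held a C/EBP motif and a PU box. Beyond the farthest run, the next row lay 2082 kb away and belonged to Adgrg6.

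Bcl6 (ENSMUSG00000022508.5, chr16:23965052-23988852, minus strand) was the only one of the 7 with lower intervals alone. Its 3 intervals lay upstream over 89.2 kb. The nearest was inside the annotated gene Gm46545 (a long non-coding RNA), and the farthest inside AC169509.1 (a pseudogene) and Gm32126. At 87.7 kb, chr16:24076591-24076791, the mean was 192 reads in control and 120 after MCD, a difference of -0.68. At 132 kb, chr16:24120967-24121167, it was 75.9 and 37.5, a difference of -1.02. At 177 kb, chr16:24165597-24165797, it was 148 and 79.7, a difference of -0.89. The 3 control means were all above the median control mean of the member intervals that were higher, 33.1 reads. This is no trait of Bcl6, since all lower rows had a median of 114 control reads and all higher rows 29.2. The nearest Bcl6 interval held a PU box and a RUNX motif. The middle one held a C/EBP and a BCL6 motif (TTCCAGGAA), and the farthest a PU.1-IRF composite. The rows on either side were lower near Rtp1, 701 kb away, with 94.3 reads in control and 35.8 after MCD, and higher near Lpp, 513 kb away, with 34.5 and 107.

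Spi1 (ENSMUSG00000002111.8, chr2:91082390-91115756, plus strand) had 1 interval, 5.60 kb upstream of the start of Spi1-201 and inside the annotated gene, since another transcript starts farther upstream. Its mean was 23.5 reads in control and 98.5 after MCD, a difference of 2.07 or 4.19-fold. It held none of the 9 motifs, and 49.8% of its bases were repeat-masked. A further row inside the Spi1 gene, chr2:91111569-91111769, was nearer to the TSS of Mybpc3 and so was not among the 37, and it had 12.0 reads in control and 38.7 after MCD, a difference of 1.69. Both rows inside the Spi1 gene were thus higher after MCD, as were 73.2% of all rows. The next row before the Spi1 interval lay 18.0 kb from it, nearest to the TSS of Slc39a13. That row was higher too, with 20.8 reads in control and 82.0 after MCD, a difference of 1.98.

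Irf8 (ENSMUSG00000041515.10, chr8:120736358-120756694, plus strand) had 1 interval, 93.5 kb downstream of the TSS and within the annotated gene Gm20388, with 31.8 reads in control and 69.3 after MCD, a difference of 1.12. Cebpb (ENSMUSG00000056501.3, chr2:167688915-167690418, plus strand) had 3 downstream, over a span of 16.4 kb that began 26.2 kb from the TSS. At chr2:167715116-167715316 the mean was 77.9 reads in control and 150.5 after MCD, a difference of 0.95. This interval held a C/EBP motif and the only AP-1 motif at Cebpb, TGATTCA, 56 bp from the centre. At chr2:167717173-167717373 the mean was 79.2 and 136, a difference of 0.78. At chr2:167731320-167731520, 42.4 kb from the TSS, it was 20.5 and 49.7, a difference of 1.28. The 4 intervals of these genes were all higher, each with a difference between 0.78 and 1.28. The first and second Cebpb intervals lay inside the annotated gene A530013C23Rik (a long non-coding RNA). The 3 Cebpb intervals depend on the transcripts used, since 0 remained with the full annotation in place of its basic set or with 1 TSS per gene.

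Differences were greater where the control mean was lower, among the members and over the table. Of the higher member intervals, the 4 with under 10 control reads had differences from 1.97 to 3.24, and the 6 with 100 or more had differences from 0.64 to 0.83. Over all higher rows, no row with under 10 control reads had a difference below 1.70, and no row with 100 or more had one above 1.27. The size of a listed difference thus went with the control level, so the genes are not ordered here by their differences. The lower member intervals had a median of 114 control reads, as did all lower rows, and the higher ones 33.1 against 29.2 for all higher rows.

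**Figure D3:**
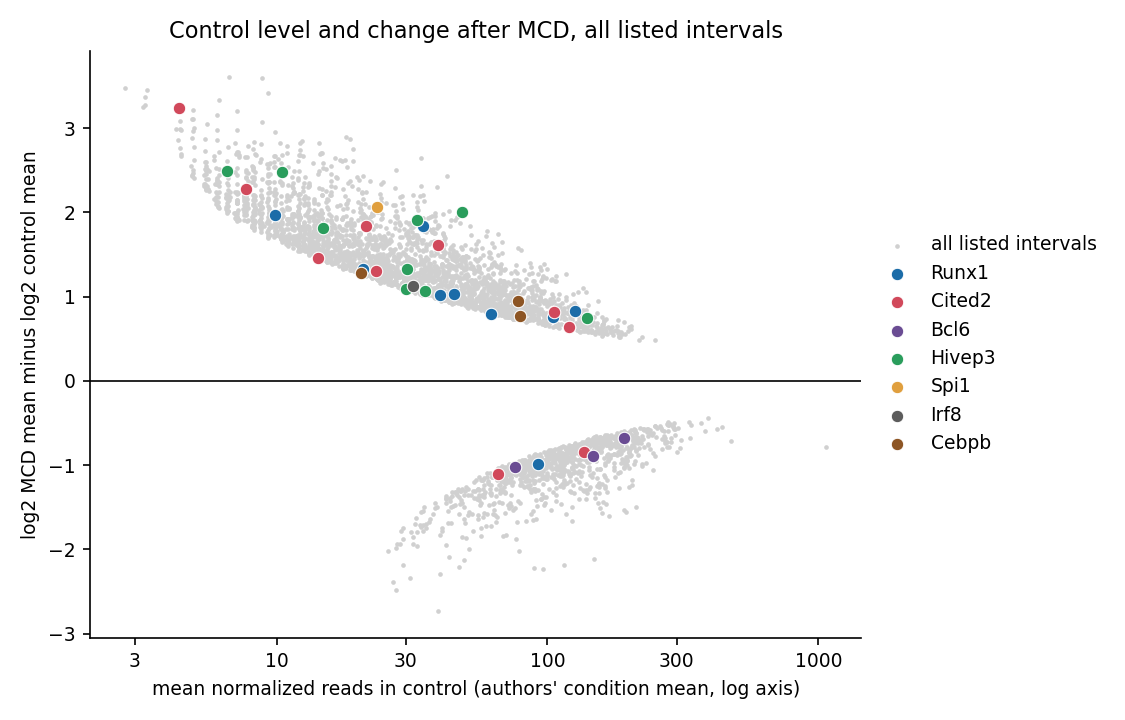
Difference between the condition means against the control mean in normalized reads (log axis) for all 3812 rows in grey and for the 37 member intervals in colour. The member intervals lie within the same cloud as the other rows, with the greatest differences at the lowest control means, and an empty band separates the higher from the lower rows.

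Motifs were searched as fixed letters on both strands in the 201 bases of every row. The letters were TGANTCA for AP-1, GAGGAA for the PU box, TGTGGT for RUNX, TTGCNNAA for C/EBP, TTCNNGGAA for BCL6 and TGACGTCA for the CRE. An IRF repeat was GAAA, 2 bases and GAAA, a PU.1-IRF composite was GGAA, any base, T and GAAA, and κB sites were searched by the standard κB consensus. The composite can share its GGAA with a PU box. A match is a description of the sequence and does not show that a factor was bound.

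AP-1 was in 18 of the 31 higher member intervals, 58.1%, against 52.8% of all higher rows, and in none of the 6 lower ones, against 3.33% of all lower rows. AP-1 was thus rare in the lower rows of the whole table. The PU box went the other way, with 5 of 31 higher intervals (16.1%, against 28.1% of all higher rows) and 4 of 6 lower ones (66.7%, against 52.2% of all lower rows). RUNX was in 9 higher intervals, 29.0% against 20.8%, and in 2 lower ones, 33.3% against 25.1%. C/EBP was in 5 higher intervals, 16.1% against 11.3%, and in 2 lower ones, 33.3% against 15.2%. BCL6 was in 1 higher interval and 1 lower one, against 3.02% of all rows, and the PU.1-IRF composite in 1 lower interval, against 1.99% of all rows. κB consensus matches were in 2 higher intervals, 6.45% against 8.67%, and the IRF repeat and the CRE were in no member interval, against 2.65% and 1.08% of all rows. With counts this small no share can be called particular to these genes.

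The sizes with and without an AP-1 motif lay close together. The 18 higher member intervals with AP-1 had a median difference of 1.39 and a median control mean of 37.1 reads, and the 13 without it 1.28 and 31.8. Over all higher rows the medians were 1.38 with AP-1 and 1.41 without. The motif lay a median of 34 bp from the centre of the member intervals and 32 bp over all rows with it, and it was within 25 bp of the centre in 6 of 18 (33.3%) and 40.7%.

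**Figure D4:**
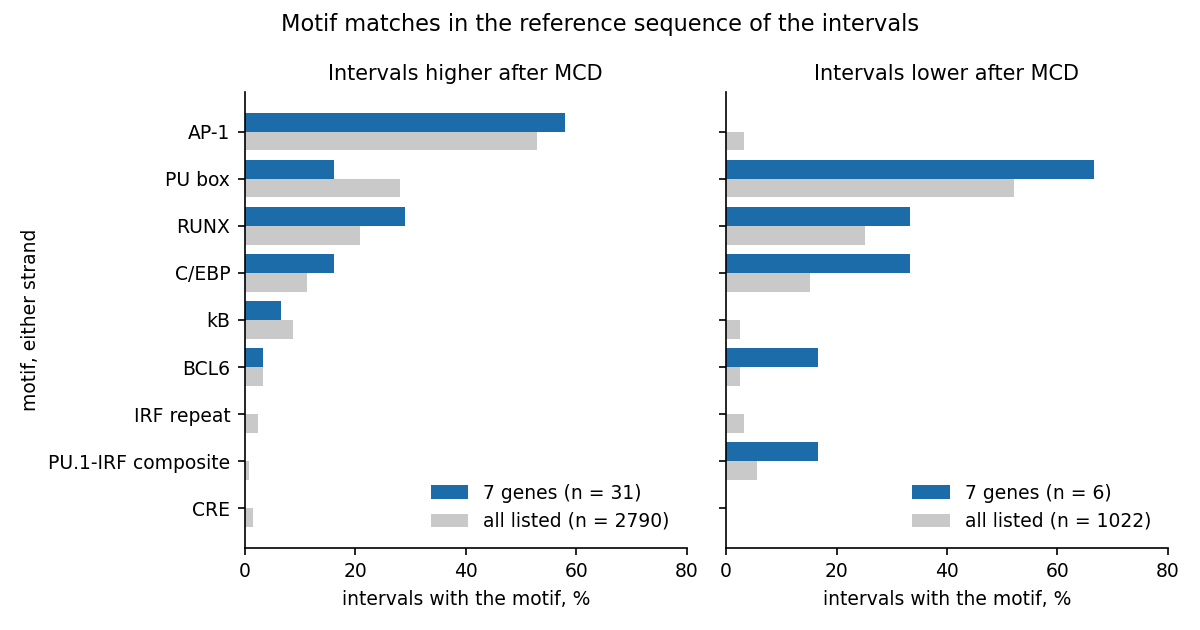
Share of intervals (%) that held each of the 9 motifs, for the 31 higher and 6 lower member intervals beside all 2790 higher and 1022 lower rows. AP-1 stands at 58.1% of higher and 0 of 6 lower member intervals, and the PU box at 16.1% and 66.7%.

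Beyond these 7, a list of 62 other myeloid and macrophage regulators of transcription had rows at 26 genes and none at 36. Relatives of the 7 were included in the list, and AP-1, NF-κB and STAT genes were left out. Immediate early genes were also meant to be left out, but the list held some, such as Myc. Of the 60 rows, 39 were higher and 21 lower, so 65.0% were higher against 73.2% of all rows, and their median difference was 1.00. Rows were higher alone at 16 genes, lower alone at 4 and of both kinds at 6. A gene with a single row has 1 direction by construction, and 1912 of all 2613 genes with a row had just 1. The share of all genes with a row, or with rows of 1 direction, was not computed, so these gene counts are no trait of the regulators. The 4 genes with the most rows were Klf4, Maf, Mitf and Bach2, followed by Gata2, Irf4, Myc and Zeb2 with 3 each. Klf4, a zinc-finger factor of monocyte differentiation, had 6 lower and 2 higher rows with a median difference of -0.77, and Maf, a bZIP factor of resident macrophages, 4 lower and 2 higher with a median of -1.09. Mitf had 3 higher and 2 lower rows and Bach2 3 higher and 1 lower. Gata2, a factor of progenitor and mast cells, had 3 higher rows with a median difference of 1.80, as the first by symbol of the 4 tied genes. Irf4 and Myc also had 3 higher rows each, and Zeb2 had 2 higher and 1 lower.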

How the data were processed

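ATAC-seq of 2 control and 2 MCD samples of RAW macrophages was used. The authors trimmed reads with cutadapt 2.6, aligned them to GRCm38 (mm10) with Bowtie2 2.4.4, removed duplicates with Picard, called peaks with MACS (MACS3 3.0.0 per the submitters' processing notes, MACS2 in the study's methods) and compared conditions with DiffBind in R 4.0.2. Whether peaks were called per sample, how reads were normalized and whether read ends were shifted for the transposase are not given in the sources used here. The deposited values used are the 2 condition means of each interval, in log2 of normalized reads, and the authors' table holds listed differences alone. The table also holds a fold, a p-value and an FDR from the authors' own comparison, which were not used.

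The samples were grouped by their treatment label. Means were converted back to reads, and each difference is the log2 MCD mean minus the log2 control mean. No value per sample was used, so no SD, test or depth per sample is given, and a planned limma fit was not run. The study's methods state a sequencing coverage for each library, but the depth realised per sample is not known. Such means carry the sampling error of that depth. Each interval took the gene whose TSS lay closest to its edge, among GENCODE M21 basic transcripts that have an Entrez ID, with a promoter limit of 3 kb, in Python 3.11.15 with pandas 2.3.3, numpy 2.4.6 and pysam 0.24.0 (samtools 1.23.1). Figures were drawn with matplotlib 3.10.9. Assignment was tested on simulated data, as was the search for the AP-1, PU-box, RUNX and CRE motifs. The search for the other motifs was not tested in this way. Motif letters were read from GRCm38. Expression levels of these genes were not analysed here.

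All 7 genes are named with their intervals, as are the 5 genes with the most rows in the table and among the other regulators (ties by symbol), and neighbouring rows were named after their values were seen. Sequences printed are the interval with the greatest absolute difference per gene and any within 3 kb of a TSS, with 1 Runx1 interval added after its values were seen. The members, lists and motifs were chosen with earlier results of these data known. Alternatives changed the start sites, the distance limit, the threshold, the reads added, the read minimum and the motif letters.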

Additional observations from a re-analysis of the deposited data

How the results depend on the processing

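Each of 29 results was recomputed under those of 15 alternatives that applied to it, and of the 97 values 52 stayed close to the reported one and 45 moved. From the reported 37 intervals (31 higher, 6 lower), the TSSs of all annotated genes, with non-coding neighbours included, left 9 (8 higher, 1 lower). A limit of 100 kb left 18 (15 higher, 3 lower), and a centre inside the gene left 14 (14 higher, 0 lower). With 1 TSS per gene, an alternative chosen after seeing the data, there were 24, of which 18 were higher. With protein-coding TSSs there were 30 (24 higher, 6 lower), with a minimum of 32 mean reads 32 (26 higher, 6 lower) and, chosen after seeing the data, with the full annotation 34 (28 higher, 6 lower). Cebpb kept 0 of its 3 intervals with the full annotation and with 1 TSS per gene. Intervals inside the gene per Mb of its length were 0 for Cited2, Bcl6, Irf8 and Cebpb. A threshold of 1.5 in place of 1 left 12 higher and 0 lower intervals, 8 reads added to each mean gave a median difference of 0.93, and a promoter limit of 1 kb left 0 intervals. The AP-1 motif was in 18 of the 37 intervals (48.6%, against 39.6% of all rows). In the central 100 bases it was in 10 of 37, against 26.2% of all rows. With C or G in its middle base it was in 13 of 37, against 34.1% of all rows. A longer PU box was in 1 of 37, against 7.69% of all rows. RUNX with any base at position 3 was in 22 of 37, against 45.4% of all rows. The other regulators had 20 rows, 18 of them higher, with the TSSs of all annotated genes. No paired analysis was possible because the table holds condition means alone, and for the same reason no sample could be left out and no other normalization tried.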

Other observations

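Both of the Runx1 intervals upstream of its distal start with the greatest differences were internally repetitive. Each interval was compared with itself at shifts of 10 to 60 bases, and the highest share of matching bases was kept. At chr16:93009173-93009373 it was 76.3%, at a shift of 24 bases, which was rank 4 in the table. At chr16:92852375-92852575 it was 49.4%, at a shift of 41 bases, rank 30. The median over all rows was 33.9%. How reads placed in such sequence affect the 2 condition means was not tested.

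Any repeat-masked base was held by 12 of 37 member intervals (32.4%), against 60.3% of all rows. This share does not measure all repetition, since both Runx1 intervals described above as internally repetitive had 0% of their bases masked. The median GC content was 48.3% in the member intervals and 47.8% over all rows.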
